A study of Mus musculus with 4 samples.

Results

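The enzymes that make serine and carry its carbon through the mitochondrial folate pathway were examined in the small intestine of mice that differ in D-amino acid oxidase (DAO). The 8 genes, chosen by name, were Phgdh, Psat1, Psph, Shmt1, Shmt2, Mthfd2, Mthfd1l and Aldh1l2. They were read by 16 of the 56605 probes of the array, and they are 8 of 37325 gene names. Shmt1 is the cytosolic counterpart of Shmt2 and stands here beside the mitochondrial enzymes.

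All mice were Tcrbd-/- on the C57BL/6J background and 9 weeks old, so the controls too carried the loss of both T cell receptor loci, beta and delta, named in the label. Controls were DAOwt/wt, and the other mice were DAOG181R/G181R, with a single amino acid of DAO altered on both copies. Epithelium was scraped from jejunum or from ileum, and RNA of 5 mice was mixed into 1 sample per tissue and genotype. The 4 samples were hybridised to 1 Cy3 array each, all in the same scan, so genotype and tissue carry no replicate. No p-value and no spread between mice is given for any value here, and a scraping pools cell types, so fewer cells of a type and less RNA per cell cannot be told apart.

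Serine is built from the glycolytic intermediate 3-phosphoglycerate. Phgdh oxidises it, Psat1 adds the amino group, and Psph removes the phosphate. SHMT enzymes then move a carbon from serine to tetrahydrofolate, leaving glycine. In mitochondria, Mthfd2 and Mthfd1l turn that carbon into formate, which leaves for purine and thymidylate synthesis in the cytosol, while Aldh1l2 oxidises it to carbon dioxide. Several of these genes are known targets of ATF4, the transcription factor of the amino acid response. DAO is known to degrade D-amino acids, D-serine among them.

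The probes are 60 bases long, and values below belong to single probes, so the first 30 bases of those on which the results turn are given, 5′ to 3′, as the files hold them. These are the brightest probes of 5 genes and, where a gene has more, its other probes, since some of those read differently.
Mthfd2, brighter probe: ttctgtcgaaatggtttaaaatgtttgtat
Mthfd2, other probe: aaacaaaacaaaacttgtgcgtgataatca
Psat1, brightest probe: tgttcatgtatcagtgttttcaatcgactg
Psat1, middle probe: cgtacctgacgtcaagggagcggtgctggt
Psat1, dimmest probe: ggaccaccaagtgtatgtaatatggcttcg
Phgdh, sole probe: gagaggggatcgcagaaccagggcatctgc
Shmt2, brighter probe: cgatgcctggatttgatgaacgttgaggac
Shmt2, dim probe: aagagcagctggttttcgaccccggtacta
Shmt1, brighter probe: ttgacatcccgaggacttttggaagaagac
Shmt1, other probe: atgccaccctgtgggcttctcatgagaaga
In the mm9 coordinates of the files, the brighter Mthfd2 probe lies at chr6:83256518-83256577, the brightest Psat1 probe at chr19:15979622-15979681, the Phgdh probe at chr3:98117098-98117157 and the brighter Shmt2 probe at chr10:126954811-126954870, all on the minus strand. Exon and UTR annotation for this build was not used here. The Phgdh probe shares a run of 31 bases with a probe for Gm6756, a predicted gene, so signal of Phgdh and of that copy cannot be told apart. No other probe of the 8 genes shared 30 bases with a probe of another gene.

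Between 57.4% and 60.4% of probes were well above background on an array, no spot was saturated, and the lowest signal well above background was 5.83 to 7.36. Processed signals are fluorescence after background subtraction. A level is the log2 of that signal minus the array's 75th percentile, which lay at signals of 156 to 185. Differences below are differences of levels at the brightest probe of a gene, and "measured" means well above background on both arrays compared. The spot SD, the median SD of a log2 difference between single spots, came from probes printed many times, since each member probe is 1 spot. It was 0.0652 to 0.0733 at signals of 100 to 1000, 0.119 to 0.153 at signals of 30 to 100 and 0.193 to 0.293 below 30, the last 2 ranges from only 3 to 7 probes per comparison. It is the only error at hand and holds nothing of the spread between mice. The tissue labels were borne out by markers, since all 5 ileal markers, Fabp6 among them, were at least 2-fold higher in ileum and all 4 jejunal markers, Lct among them, at least 2-fold lower. Tcrb-J, the sole listed gene on the array from a deleted receptor locus, was not well above background on any array. The CD3 chains Cd3d, Cd3e and Cd3g, which lie outside those loci, were on all 4.

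**Figure D1:**
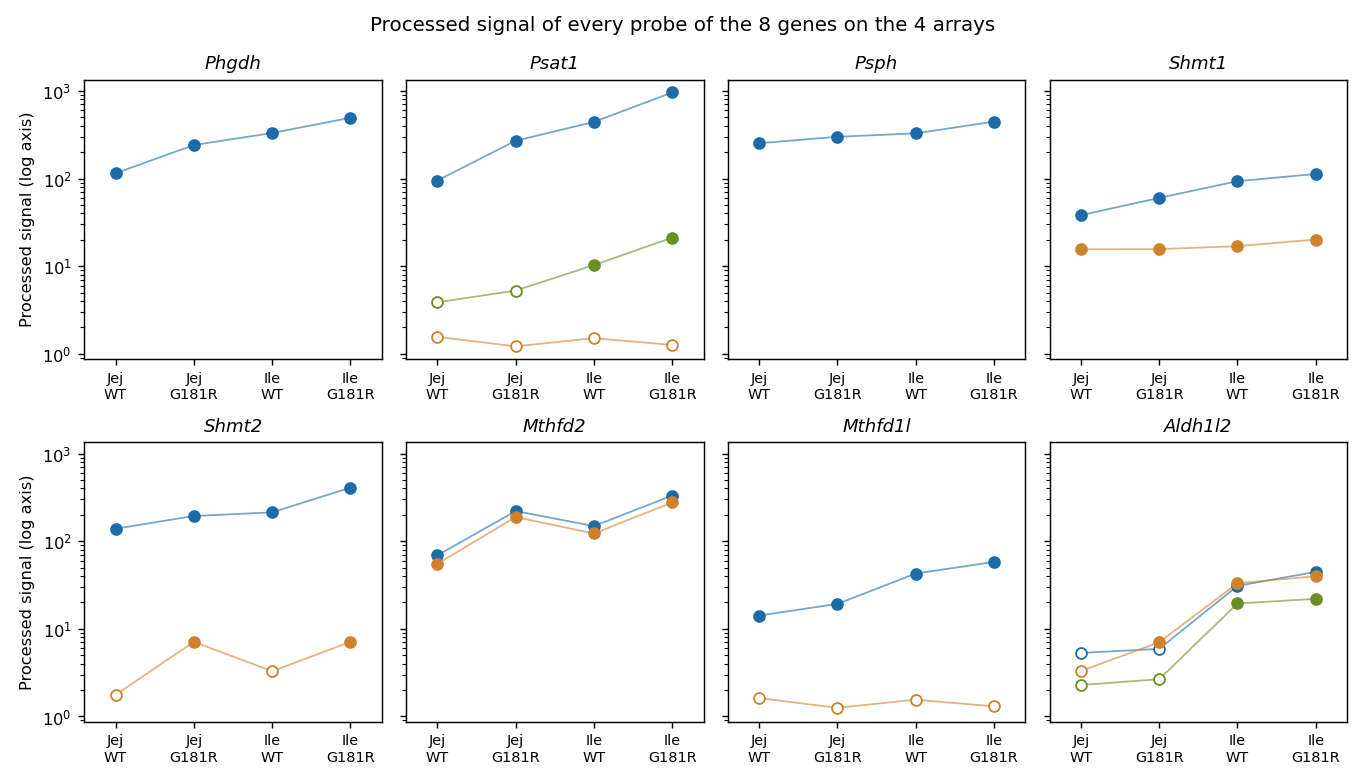
Processed signal (log axis) of every probe of the 8 genes on the 4 arrays (Jej, jejunum; Ile, ileum; WT, DAO wild-type). Each point is 1 array, lines and colours join the points of 1 probe, and open points were not well above background; heights of different probes are not comparable. At the brightest probe of each gene G181R ileum is the highest array. Wild-type jejunum is the lowest except for Aldh1l2, whose jejunal points are both at background and have no order.

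The first question was how the genes differed between the DAO genotypes. In jejunum, 7 of the 8 genes were measured and all 7 were higher in G181R, while 48.3% of all 21354 measured genes were. Mthfd2, Psat1 and Phgdh were at least 2-fold higher, 3 of 7, beside 0.763% of all measured genes, and 0 were at least 2-fold lower, beside 0.749%. At 1.5-fold they were 4 of 7, beside 3.39%. In ileum all 8 genes were measured and higher in G181R, beside 53.2% of 21608 genes, and Mthfd2, Psat1 and Shmt2 were at least 2-fold higher, 3 of 8, beside 2.0% of all genes. There 0 were at least 2-fold lower, beside 3.21%, and 5 of 8 were at least 1.5-fold higher, beside 6.79%. The median difference of the members was 0.62 in jejunum and 0.63 in ileum, against -0.01 and 0.03 for all genes. The genes were picked with such values known, so these shares describe them and do not test them.

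Phgdh, the first enzyme of serine synthesis, had processed signals of 115 in wild-type jejunum, 241 in G181R jejunum, 330.3 in wild-type ileum and 494 in G181R ileum. It was thus lowest in wild-type jejunum, and each tissue was brighter in G181R. G181R was higher by 2.05-fold in jejunum (log2 1.04) and 1.58-fold in ileum (log2 0.66). With normexp background correction, which draws dim signals together, the jejunal value was 0.71 and under 2-fold. The probe for Gm6756 differed by 0.97 in jejunum and 0.63 in ileum.

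Psat1, which makes phosphoserine with glutamate as nitrogen donor, spanned the widest range of the 7 genes measured on every array. Its brightest probe read 94.9 in wild-type and 269 in G181R jejunum, and 442 and 960.2 in the same order in ileum. The array order was that of Phgdh. G181R was 2.77-fold higher in jejunum (log2 1.47) and 2.29-fold higher in ileum (log2 1.20). The middle probe read 3.86 and 5.26 in jejunum, not well above background, and 10.3 and 21.2 in ileum, a difference of 1.12 that matched the brightest probe within the spot error of dim signals. The dimmest probe was not well above background on any array. In the mean of the 3 probes, which takes in that background, Psat1 differed by 0.50 in jejunum and 0.71 in ileum and was under 2-fold in both.

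Psph, the phosphatase of the last step, differed least in jejunum. Its only probe read 253 and 299 in jejunum and 328 and 445 in ileum, wild-type first. The differences were 0.21 and 0.52 on the log2 scale, both larger than the spot SD and both under 2-fold. The 3 enzymes of the chain thus stood at 1.04, 1.47 and 0.21 in jejunum and at 0.66, 1.20 and 0.52 in ileum, in the order of their steps.

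Shmt2, the mitochondrial serine hydroxymethyltransferase, read 139 and 194 in jejunum and 213 and 409 in ileum at its brighter probe. G181R was 1.36-fold higher in jejunum (log2 0.45) and 2.02-fold higher in ileum (log2 1.02). The ileal value lies at the 2-fold limit, and it was 0.86 with normexp and 0.997 with the percentile taken over probes well above background on all arrays. The dim probe of Shmt2 was well above background in G181R alone, at 7.09 in jejunum and 7.10 in ileum, against 1.77 and 3.28 in wild-type. The bound it gives in ileum is only at least 1.04-fold, and none could be set in jejunum. In the mean of both probes Shmt2 stood at 1.21 in jejunum, above 2-fold, through that dim probe.

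Shmt1, the cytosolic enzyme, read 38.1 and 60.1 in jejunum and 93.2 and 113 in ileum at its brighter probe. The differences were 0.62 and 0.35, under 2-fold. Its other probe read 15.6 in both jejunal samples, a difference of -0.03, and 16.9 and 20.1 in ileum, a difference of 0.33. The probes of Shmt1 thus read alike in ileum and unlike in jejunum, and a difference of Shmt1 in jejunum rests on 1 probe.

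Mthfd2, the mitochondrial dehydrogenase and cyclohydrolase that adult tissues are known to keep low, had the largest genotype difference of the 8 genes in each tissue, ahead of Psat1 in ileum by less than the spot SD. Its brighter probe read 69.0 in wild-type and 221 in G181R jejunum, and 149 and 332 in ileum. Here G181R jejunum was above wild-type ileum, unlike in Phgdh and Psat1. G181R was 3.12-fold higher in jejunum (log2 1.64) and 2.35-fold higher in ileum (log2 1.23). The other probe read 55.2, 188, 123 and 277 in the same order and gave 3.34-fold and 2.39-fold, so both probes of Mthfd2 were past 2-fold in each tissue. With normexp the values were 1.14 and 0.99, the latter just under 2-fold. Mthfd2 ranked 48 from the highest among all measured genes in jejunum and 278 in ileum, and Psat1 ranked 64 and 302.

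Mthfd1l, the mitochondrial formate-producing synthetase, was dim, with signals of 14.2 and 19.3 in jejunum and 42.8 and 58.0 in ileum. Its differences of 0.41 and 0.52 exceeded the spot SD of dim signals and were under 2-fold. With normexp they were 0.10 and 0.25. The second Mthfd1l probe was not well above background on any array. In the mean of both probes, which takes in that background, Mthfd1l differed by 0.0041 in jejunum and 0.17 in ileum.

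Aldh1l2, which burns the folate carbon to carbon dioxide, was near background in jejunum. Its brightest probe read 5.31 and 5.91 there, neither well above background, and 30.9 and 44.7 in ileum. One of its 3 probes was well above background in G181R jejunum, at 7.02, and none was in wild-type jejunum. In ileum the probes gave differences of 0.61, 0.34 and 0.25, all higher in G181R and all under 2-fold.

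**Figure D2:**
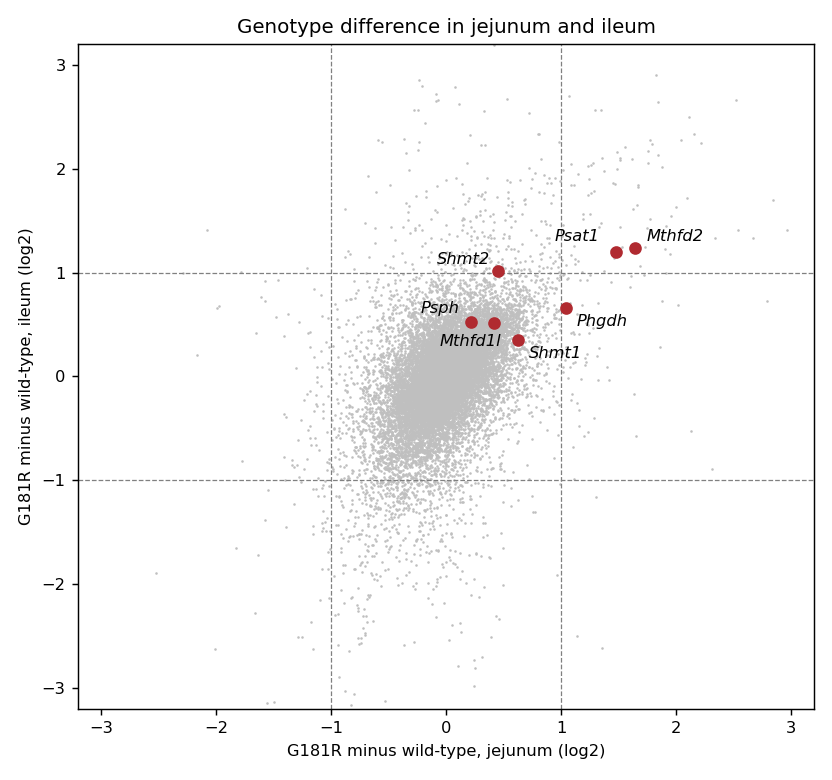
Genotype difference (log2, G181R minus wild-type) in jejunum (horizontal) and ileum (vertical). Red points are the 7 genes measured in both tissues, grey points all 20543 genes measured in both (12 lie outside the axes), and dashed lines mark 2-fold; Mthfd2 and Psat1 lie beyond 2-fold in both tissues.

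Set side by side, the genotype differences of the 2 tissues come from separate arrays. Mthfd2 and Psat1 were at least 2-fold higher in both, as were 88 of 20543 genes, 0.428%. Mthfd2, Phgdh, Psat1 and Shmt1 differed more in jejunum, with differences of the 2 genotype differences (ileum minus jejunum) of -0.41, -0.38, -0.28 and -0.27. Shmt2 and Psph differed more in ileum, by 0.57 and 0.31, and Mthfd1l by 0.11. These directions depend on the probe for 3 genes. In the mean of all probes, the difference of the genotype differences of Psat1 was 0.21, the difference of the genotype differences of Shmt1 was 0.043 and the difference of the genotype differences of Shmt2 was -0.11, each of opposite sign. With normexp that of Psat1 was -0.0032. Over all genes the quartiles of this quantity were -0.18 and 0.19 and its 2.5 and 97.5 percentiles -0.93 and 0.87, so each of the 7 genes lay inside that wider range. None of these gaps between tissues was tested.

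The second question was how the genes differ along the small intestine. Each of the 7 genes measured in wild-type mice was higher in ileum than in jejunum, where 46.6% of all 20879 measured genes were. In wild-type mice 4 of 7 were at least 2-fold higher, Phgdh, Psat1, Shmt1 and Mthfd1l, beside 7.42% of all genes, and 0 were at least 2-fold lower, beside 9.11%. In G181R mice 7 of 7 were higher, beside 48.0% of 21605 genes. There 2 of 7, Psat1 and Mthfd1l, were at least 2-fold higher, beside 7.30%, and 0 lower, beside 8.73%. At 1.5-fold the counts were 5 of 7 in each genotype, beside 15.8% in wild-type and 16.1% in G181R mice. These comparisons use the same 4 arrays as the genotype comparisons, so a low value in the wild-type jejunum sample enters both.

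Psat1 differed most between tissues among the measured members, 3.94-fold higher in ileum in wild-type (log2 1.98) and 3.25-fold in G181R mice (log2 1.70). Mthfd1l came next in G181R mice, 2.55-fold higher in wild-type and 2.75-fold in G181R mice (log2 1.35 and 1.46). Phgdh was 2.43-fold and 1.87-fold higher (log2 1.28 and 0.90). Shmt1 differed by 1.05 and 0.77 at its brighter probe and by -0.13 and 0.23 at the other. With normexp the wild-type values of Phgdh, Shmt1 and Mthfd1l were 0.92, 0.51 and 0.34, all under 2-fold, and Mthfd1l in G181R mice was 0.49. In the mean of their probes Psat1, Shmt1 and Mthfd1l were 0.95, 0.46 and 0.52 in wild-type mice, also under 2-fold. In that mean Mthfd1l was 0.69 and Psat1 1.16 in G181R mice.

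Mthfd2 and Shmt2 differed less by tissue. Mthfd2 was higher in ileum by 0.87 in wild-type and 0.46 in G181R mice, and Shmt2 by 0.38 and 0.94. Psph differed by 0.13 and 0.44, and relative to 4 epithelial genes (Epcam, Cdh1, Vil1, Krt8) the wild-type value turned to -0.061. Aldh1l2 was at least 3.55-fold higher in ileum in wild-type and at least 6.90-fold in G181R mice at its brightest probe. Its other probes gave at least 3.81-fold and at least 2.24-fold in wild-type mice. In G181R mice the probe that was well above background on both arrays gave a measured 5.18-fold, less than the bound of the brightest probe, and the third gave at least 3.44-fold. Aldh1l2 was thus the member that could be told from background in ileum but not in wild-type jejunum.

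**Figure D3:**
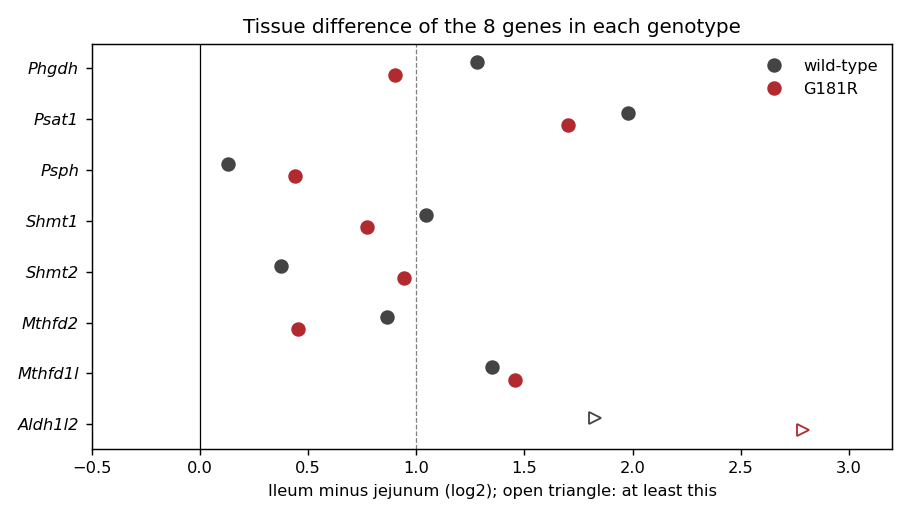
Ileum minus jejunum (log2) for each of the 8 genes in wild-type (grey) and G181R mice (red), with the dashed line at 2-fold. Filled circles are measured differences between 2 arrays and open triangles lower bounds; all measured values are above 0, from 0.13 to 1.98.

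The order of the 4 arrays fell into 2 kinds. For Phgdh, Psat1, Shmt1, Mthfd1l and Aldh1l2 the levels ascended from wild-type jejunum through G181R jejunum and wild-type ileum to G181R ileum. For Mthfd2, Shmt2 and Psph, G181R jejunum lay above wild-type ileum. For Shmt2 and Psph that gap was about the size of the spot SD, with levels of 0.28 against 0.21 and of 0.91 against 0.83, so their order is not settled. For Mthfd2 it was 0.47 against -0.31. For Aldh1l2 both jejunal levels are at background and have no order.

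Profiles were compared by Euclidean distance between levels centred over the 4 arrays, as a description of 4 points. Among the members the closest pair was Phgdh and Shmt1, at 0.41, and the farthest Psat1 and Psph, at 1.85. Nearest to Phgdh among all named genes well above background on every array were Rnf145 (0.12), the cyclin Ccne1 (0.12) and glutathione reductase Gsr (0.14). Nearest to Psat1 were Nfasc (0.28), Ecscr (0.32) and Plce1 (0.37). Thpo (0.23), the mucin-branching enzyme Gcnt3 (0.28) and Tifa (0.31) were nearest to Mthfd2. Shmt2 had the closest neighbours, Creld2 (0.07), Cpb2 (0.10) and the ribosome assembly factor Rrp12 (0.10).

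Few other genes of folate and serine metabolism were 2-fold apart between genotypes. Beside Mthfd2, Mthfd1l and Aldh1l2, the mitochondrial folate list held 4 other genes, 0 of them at least 2-fold different between genotypes in either tissue. Of these, 4 were higher in G181R jejunum and 3 in G181R ileum, with medians of 0.33 and 0.27. Mthfd2l, the close relative of Mthfd2, was higher by 0.49 in jejunum and 0.55 in ileum, and Mthfsd by 0.47 and 0.24. Of 9 cytosolic folate genes 8 were measured and 0 reached 2-fold. In jejunum 7 of the 8 were higher in G181R and in ileum 5, with medians of 0.18 and 0.16. Mthfd1, the cytosolic enzyme that reloads formate onto folate, was higher by 0.47 and 0.51. Ggh, which trims folate polyglutamates, differed by 0.84 in jejunum and by -0.32 in ileum. The proton-coupled folate transporter Slc46a1 was lower by 0.61 in G181R jejunum, and its signal was 16725 in wild-type jejunum against 672 in wild-type ileum, a log2 difference of -4.88. The folate receptor Folr1 differed by -0.20 and 0.10 between genotypes.

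Genes that use or carry serine and glycine showed few 2-fold differences by genotype, which likewise does not set them apart from all genes. Of 14 measured genes that use them, 0 reached 2-fold in either tissue, with medians of -0.01 and 0.22. Cbs, which joins serine to homocysteine, differed by 0.46 in jejunum and by -0.40 in ileum, and Sptlc2, of sphingolipid synthesis, by 0.49 and 0.50. Srr, the racemase that makes D-serine from L-serine, was chosen for mention after its values were seen and differed by -0.04 and -0.26. The 3 measured genes of the glycine cleavage system had medians of 0.073 and 0.14, with Gcsh at 0.076 and 0.14 and Dld at 0.073 and 0.23. Among 13 transporters Slc6a14, a broad amino acid importer, was 3.62-fold higher in G181R ileum (signals of 209.7 and 720, log2 1.86), and it was not well above background in either jejunal sample. Lower glycolysis, which supplies 3-phosphoglycerate, had 0 of 7 genes at 2-fold and medians of -0.0034 and 0.12, with Pgam1 at 0.09 and 0.33 and Pkm at 0.14 and 0.17.

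The methionine cycle takes folate carbon to remake methionine. Bhmt, which does so with betaine in place of folate, was 5.86-fold higher in G181R ileum, with signals of 229 and 1273, and differed by 0.32 in jejunum. Its relative Bhmt2 read 100.2 and 207 in ileum, a difference of 1.12, and was not well above background in jejunum. The other 8 measured genes of that list were under 2-fold in both tissues. Purine synthesis, which takes formate carbon, had 1 gene at 2-fold in jejunum, Gart (1.14, signals of 41.3 and 93.0), and 0 in ileum. The medians of that list were 0.38 and 0.41.

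ATF4 targets of the amino acid response were mixed, with 4 of 24 measured genes at least 2-fold higher in jejunum and 4 of 25 in ileum, 0 lower, and medians of 0.13 and 0.16. Asns, asparagine synthetase, had signals of 1221 and 3165 in jejunum and 2481 and 6526 in ileum, which is 2.53-fold and 2.78-fold higher in G181R. Chac1, which cleaves glutathione, was higher by 1.75 and 2.06 on the log2 scale. Slc7a1, a cationic amino acid transporter, was higher by 1.01 and 0.98, Atf5 by 0.95 and 1.21, and Slc7a5 by 1.31 and 0.19. Slc7a5 was dim, with signals of 13.6 and 34.4 in jejunum and 27.1 and 29.3 in ileum, wild-type first. Stc2 was higher by 1.65 in ileum, with dim signals of 9.41 in wild-type and 28.0 in G181R, and not well above background in jejunum. Slc7a11, the cystine importer, was at least 2.20-fold higher in G181R ileum and not well above background in jejunum. Its ileal signals were dim, 6.01 in wild-type and 15.0 in G181R. In all, 13 of 24 measured genes were higher and 11 lower in jejunum, and 17 and 8 of 25 in ileum. Of all measured genes, 48.3% and 53.2% were higher. Of genes under 2-fold, chosen for mention after their values were seen, Atf4 mRNA differed by 0.26 and 0.36, Eif4ebp1 by 0.98 and 0.45, Trib3 by 0.09 and -0.18, Ddit3 by -0.08 and 0.06, and Slc7a3 by -0.76 and -0.90. The 5 genes of the kinases upstream of ATF4 and their substrate had medians of -0.02 and 0.25, with Eif2ak3 at -0.33 and -0.20 and Eif2s1 at 0.27 and 0.33.

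Of 20 cytosolic aminoacyl-tRNA synthetases, 19 were higher in G181R jejunum and 20 in G181R ileum, beside 48.3% and 53.2% of all genes. Their medians were 0.41 and 0.59. At least 2-fold higher were 0 in jejunum, beside 0.763%, and 2 in ileum, beside 2.0%, Yars (1.05) and Cars (1.03). Of 11 genes of Myc and its growth targets, 9 were higher in each tissue, beside the same 48.3% and 53.2%, with medians of 0.48 and 0.45. In ileum Srm, spermidine synthase, was 1.04 higher and Mycn 1.34 lower on the log2 scale.

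**Figure D4:**
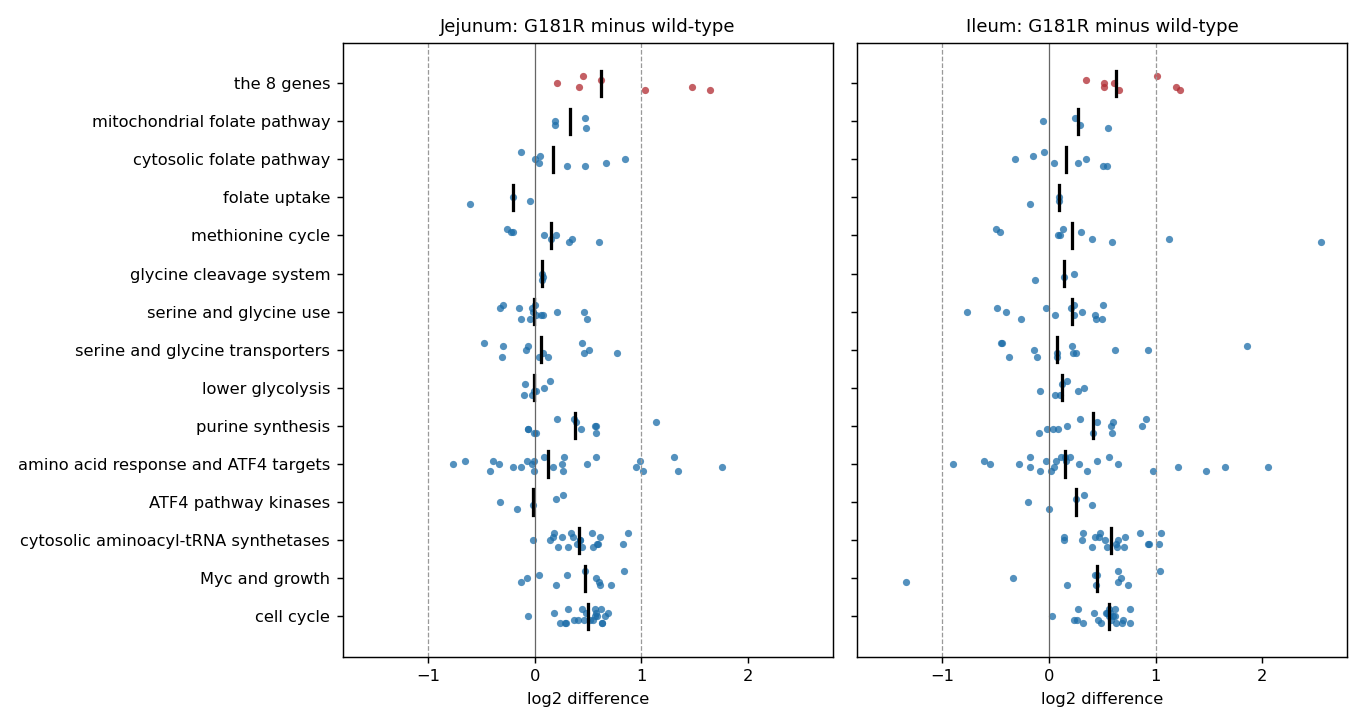
Genotype difference (log2, G181R minus wild-type) of each measured gene in jejunum (left) and ileum (right), by gene list. Red points are the 8 genes (7 measured in jejunum), blue points genes of each list other than those 8, black bars list medians, and dashed lines 2-fold; medians of the lists run from -0.20 to 0.50 in jejunum and from 0.08 to 0.59 in ileum.

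Markers of proliferation and of other cells differed between the genotypes too. Of 22 cell cycle genes, 21 were higher in G181R jejunum and 22 in G181R ileum, beside 48.3% and 53.2% of all genes. Of the 22, 0 were at 2-fold, and their medians were 0.50 and 0.56. Ccnb1 was higher by 0.69 and 0.57, and Cdc20 by 0.63 and 0.68. Their summed level, in multiples of the array's 75th percentile, was 85.1 and 107 in jejunum and 154 and 218 in ileum, which is the order of arrays seen for Phgdh and Psat1. Their part in the differences of the members was not tested. Stem and crypt base markers summed to 12.6 and 15.8 in jejunum and to 26.3 and 26.5 in ileum, the same order of arrays. By gene, 6 of 8 were higher in G181R jejunum (median 0.17) and 7 of 8 lower in G181R ileum (median -0.11); the sum is led by Smoc2. Paneth cell markers summed to 1274 and 1409 in jejunum and to 2305 and 2406 in ileum. By gene, 7 of 7 were higher in G181R jejunum (median 0.48) and 5 of 7 in G181R ileum (median 0.076). These sums are led by Defa24, with signals of 123431 and 126744 in jejunum and 124195 and 124021 in ileum.

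Smooth muscle markers were lower in G181R ileum in all 11 measured genes, 9 of them at least 2-fold (median -2.51), with sums of 106 in wild-type and 44.1 in G181R. In jejunum the sums were 51.9 and 56.9. Fibroblast markers were lower in G181R in 7 of 7 genes in each tissue and summed to 17.7 and 11.6 in ileum, wild-type first. Adipocyte markers summed to 50.4 and 24.7 in ileum, with 4 of 6 genes lower in G181R (median -1.04). The other 2, Plin1 and Lep, were higher by 0.26 and 0.25. The adipocyte sum is led by Cidec, with signals of 4241 and 1959 in ileum and 11474 and 10597 in jejunum. B cell markers summed to 7.43 and 12.7 in ileum and to 2.10 and 1.11 in jejunum. Macrophage markers were higher in G181R in 5 of 8 genes in jejunum and in 7 of 8 in ileum (medians of 0.062 and 0.27). Their sums of 248 and 314 in jejunum and 437 and 459 in ileum are mostly Lyz2, while 6 of 8 genes were lower in ileum than in jejunum. Neutrophil marker sums, 119 and 125 in jejunum and 91.2 and 97.5 in ileum, are nearly all Csf3r. Of the other neutrophil genes, Ly6g was higher by 1.86 in G181R ileum. S100a8 and S100a9 were well above background in G181R ileum alone, at least 3.58-fold and at least 14.2-fold higher than in wild-type ileum. Csf3r, Mpo and Retnlg differed by 0.08, -0.06 and 0.30 in ileum, and Cxcr2 was not well above background in either ileal sample. The median of the 4 measured neutrophil genes in ileum was 0.19.

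Enterocyte markers were lower in G181R in 10 of 13 genes in jejunum and in 11 of 13 in ileum, 0 by 2-fold (medians of -0.077 and -0.065). In ileum Alpi and Apoa1 were lower by close to 2-fold, at -0.999 and -0.98, and Sis, chosen for mention after its value was seen, at -0.91. Their sums were 4787 and 4366 in jejunum and 2447 and 2255 in ileum. The part of any of these cells in the members' differences was not tested.

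Promoter windows, 250 bases before to 50 after the start of a gene, were taken from RefSeq (GRCm38.p6) for 7 of the 8 genes, in 8 windows. Those of Psat1 (chr19:15925010-15925309), Phgdh (chr3:98339920-98340219) and Mthfd2 (chr6:83317555-83317854), all on the minus strand, are shown. These 3 genes were at least 2-fold higher in G181R jejunum. Capitals mark CCAAT on either strand (ATTGG on the strand printed).
Psat1: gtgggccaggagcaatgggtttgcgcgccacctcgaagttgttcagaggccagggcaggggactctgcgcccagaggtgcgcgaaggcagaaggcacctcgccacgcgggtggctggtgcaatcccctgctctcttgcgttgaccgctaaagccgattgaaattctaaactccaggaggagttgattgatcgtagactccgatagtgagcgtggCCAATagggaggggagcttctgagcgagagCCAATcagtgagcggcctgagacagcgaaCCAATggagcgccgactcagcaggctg
Phgdh: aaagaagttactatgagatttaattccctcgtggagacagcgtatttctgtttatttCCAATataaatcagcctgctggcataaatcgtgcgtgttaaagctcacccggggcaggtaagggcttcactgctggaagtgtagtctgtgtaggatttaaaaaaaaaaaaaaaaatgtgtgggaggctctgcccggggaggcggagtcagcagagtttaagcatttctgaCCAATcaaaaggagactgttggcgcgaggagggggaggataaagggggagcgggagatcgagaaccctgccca
Mthfd2: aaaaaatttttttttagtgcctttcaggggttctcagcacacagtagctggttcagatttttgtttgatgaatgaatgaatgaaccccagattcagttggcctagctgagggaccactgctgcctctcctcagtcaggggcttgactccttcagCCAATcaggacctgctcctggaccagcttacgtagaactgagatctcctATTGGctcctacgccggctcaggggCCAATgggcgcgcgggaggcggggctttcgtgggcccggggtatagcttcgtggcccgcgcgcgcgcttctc
CCAAT was found in 5 of the 8 windows, beside 37.4% of all 32851 windows. These windows belong to 5 of the 7 genes, Psat1, Phgdh, Mthfd2, Psph and Shmt1. The windows of Shmt2 and Mthfd1l and a second window of Psat1, which are not shown, held no CCAAT. The letters TGATGNAAN, the pattern that ATF4 is known to bind together with C/EBP factors, were in none of the 8 windows and in 3.95% of all windows, searched on both strands. They were in the windows of Asns, Chac1 and Trib3, which differed between genotypes by 1.34, 1.75 and 0.09 in jejunum. They were not found for Atf5, which differed by 0.95 in jejunum and 1.21 in ileum. CACGTG, the E-box, was in none of the 8 windows and in 7.15% of all. No motif here overlaps another in the windows shown. The Asns window (chr6:7693160-7693459, minus strand) is given for comparison, with the TGATGNAAN match in capitals.
Asns: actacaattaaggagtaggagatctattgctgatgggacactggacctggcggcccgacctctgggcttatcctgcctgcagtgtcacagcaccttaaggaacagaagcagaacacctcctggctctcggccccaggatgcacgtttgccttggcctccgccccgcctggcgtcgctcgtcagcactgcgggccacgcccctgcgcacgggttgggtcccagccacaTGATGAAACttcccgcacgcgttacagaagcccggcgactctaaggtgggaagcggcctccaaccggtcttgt
These matches describe letters in a window and say nothing of binding in these samples.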

How the data were processed

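Total RNA (100 ng, pooled from 5 mice per sample) was hybridised to 1-colour arrays. Per the file headers, the authors' intensity values come from Agilent Feature Extraction 11.5.1.1, with background subtracted and spatial and multiplicative trends removed within each array and no scaling between arrays; dim spots hold surrogate values. The other values used, per the file headers, are flags of 0 or 1 for each spot. The deposited value table holds log2 values that equal the log2 intensity minus 1 constant per array for 95.8% of probes (tolerance 0.01). There, 2356 probes, 2 of them for Aldh1l2, hold a fill value, so it served only as an alternative. The reason for the constants is not given in the sources used here; its column medians were -3.09, -3.09, -3.09 and -3.14.

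Log2 intensities were averaged over spots of a probe without outlier spots, and the 75th percentile of each array, taken without control probes, was subtracted. The brightest probe stood for a gene. A gene is called from a 2-fold difference. Where 1 array was not well above background, a bound was set against the higher of the probe's own signal and the lowest signal well above background there. No test was run: each group is 1 array, and the sole fit with a residual degree of freedom, a model with no term for genotype by tissue, was not used. Having 4 arrays limits how precise any value is. Of the probes, 32994 took their symbol from the GRCm38.p6 gene table through their accession; the other 23611 kept the design's name. The arithmetic of these steps was checked on simulated data with known added differences, which are recovered by construction. The noise added there was below the spot SD of dim signals, so this does not check calls near 2-fold.

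The members and the 28 gene lists (266 genes, 261 on the array) were chosen with earlier results of these data known. Named were all members and list genes at least 2-fold different by genotype or otherwise the 2 most different (up to 2 for marker lists). The 3 nearest profiles of Phgdh, Psat1, Mthfd2 and Shmt2 were named as well. Slc7a11, S100a8 and S100a9 (bounds only), Smoc2, Lyz2, Csf3r, Mpo, Cxcr2, Cidec, Plin1, Lep and Defa24 were added after their values were seen. So were the CD3 chains and the genes so marked in the text. Alternatives were normexp (limma 3.58.1, offset 50), other scalings, the mean of probes, no background filter, a 1.5-fold threshold and the deposited values. Software was Python 3.11.15 and R 4.3.3.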

Additional observations from a re-analysis of the deposited data

How the results depend on the processing

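Some of the recomputed member differences could not change direction. Without the background filter they equal the main values. For Phgdh and Psph, with 1 probe each, the mean of probes equals the main value too. The deposited table, outside its fill values, holds the same intensities minus 1 constant per array, so it shifts the members of a comparison alike. The median and the other percentile scale do so as well, by -0.020 to 0.064. The smallest measured main difference was 0.13, so these 3 scalings could hardly reverse a direction. With these values counted, 230 of 232 recomputed member differences kept their direction over 8 alternatives. The exceptions were Aldh1l2 in ileum by genotype, -0.22 with the deposited table, where its probe holds a fill value, and Psph by tissue in wild-type mice, -0.061 relative to epithelial genes, a scale added after the data were seen. With normexp, members at least 2-fold higher numbered 1 in place of 3 by genotype in ileum, 1 in place of 4 by tissue in wild-type and 1 in place of 2 by tissue in G181R mice. At 1.5-fold they numbered 5 by genotype in ileum and 5 by tissue in G181R mice. In the mean of all probes, 1 was called by tissue in wild-type mice. In that mean the difference of the genotype differences of Psat1 was 0.21, the difference of the genotype differences of Shmt1 was 0.043 and the difference of the genotype differences of Shmt2 was -0.11, each opposite in sign to the value from the brightest probe; the cause was not tested.

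Scaling to epithelial genes shifted the median of all genes by 0.14 (log2) by genotype in ileum and by -0.19 and -0.13 by tissue. The higher share of genes called was then 63.9% in place of 50.5% in jejunum and 55.6% in place of 38.4% in ileum by genotype, and 29.03% in place of 44.9% and 33.8% in place of 45.5% by tissue in wild-type and G181R mice. With no background filter the median shifted by -0.14 in ileum by genotype and by -0.22 by tissue in wild-type mice. Normexp called 60 genes higher and 33 lower in jejunum, in place of 163 and 160, and 180 and 216 in ileum, in place of 432 and 693. Without the background filter 1175 and 1664 were called in jejunum and 1519 and 2017 in ileum. No paired analysis was possible because each group is 1 array. Members with signals under 30 (Mthfd1l and Aldh1l2 in jejunum) are limited by background.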
